A study of Mus musculus with 8 samples.

Results

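The Notch genes described here are 3 receptors (Notch1, Notch2 and Notch3), 2 ligands (Jag1 and Jag2), the nuclear factor Rbpj and 4 target genes of the HES and HEY families (Hes1, Hey1, Hey2 and Heyl). They were taken by gene symbol from the platform annotation, with the row of the highest mean where a gene had several, and all 10 were found among 22180 genes measured. Expression was measured on 8 mouse gene arrays in cells sorted from skin for green fluorescence and absence of surface p75. The cells belonged to 3 groups. P21_KO holds 4 arrays of melanocyte stem cells of 21-day mice with floxed alleles of both B-raf and C-raf (B-raf fl/fl and C-raf fl/fl), P21_WT holds 2 arrays of melanocyte stem cells of 21-day mice with wild-type alleles (B-raf +/+ and C-raf +/+), and P4_WT holds 2 arrays of melanoblasts, the precursors of pigment cells, of 4-day mice with the same wild-type alleles. All groups carried the Tyr::Cre transgene, in which a tyrosinase promoter drives Cre recombinase, and the Z/EG reporter, which makes green fluorescent protein after recombination, on a mixed C57Bl/6 and 129/Sv background. Controls therefore express Cre too, and deletion is limited to cells in which the tyrosinase promoter has been active. The labels call all arrays biological replicates and the wild-type ones separate animals, but 3 of the 4 P21_KO arrays carry one common number, which the labels do not explain. Should these come from one animal or litter, their spread could understate that between animals. The fit pools the spread of all 3 groups, so it would enter the p-values of both comparisons, including that of the wild-type groups.

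Notch receptors sit in the membrane and are activated by ligands of the Jagged and Delta-like families on a touching cell. Cleavage then frees the intracellular part of the receptor, which enters the nucleus, binds the DNA-binding protein RBPJ and switches on genes such as those of the HES and HEY repressors. In mouse skin, loss of Notch1 and Notch2 or of Rbpj in the pigment lineage depletes melanoblasts and melanocyte stem cells and turns the coat grey, and Hes1 can act in this survival role.

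Promoters from RefSeq were found for 7 of the 10 genes (Notch1, Notch2, Notch3, Jag1, Jag2, Rbpj and Hey2), with 8 starts in all because Rbpj had a pair. The 250 bases before each start were searched on both strands for TGGGAA, the core of the RBPJ motif, for GTGGGAA, its longer form that contains the core, and for CACGNG, a motif of HES and HEY factors. The promoters of 3 genes are shown. Hey2 was the only target gene with a promoter found, and it held a match to the longer RBPJ form. Promoters of Hes1, Hey1 and Heyl could not be searched. Notch2 and Jag1 are shown because they are the receptor and the ligand whose values differed most between groups. Capitals mark the motif matches.
Hey2 promoter, GRCm38.p6, chr10:30842784-30843033, minus strand: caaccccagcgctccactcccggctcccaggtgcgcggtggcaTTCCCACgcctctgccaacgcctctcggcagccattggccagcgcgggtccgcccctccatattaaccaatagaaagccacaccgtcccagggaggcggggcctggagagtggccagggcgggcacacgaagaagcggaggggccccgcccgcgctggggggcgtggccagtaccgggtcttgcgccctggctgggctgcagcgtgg
Notch2 promoter, GRCm38.p6, chr3:98013288-98013537, plus strand: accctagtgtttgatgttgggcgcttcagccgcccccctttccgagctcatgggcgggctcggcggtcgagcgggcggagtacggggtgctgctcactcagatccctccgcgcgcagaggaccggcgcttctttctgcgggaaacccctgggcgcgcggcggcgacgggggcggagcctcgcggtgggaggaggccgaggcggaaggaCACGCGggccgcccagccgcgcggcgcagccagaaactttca
Jag1 promoter, GRCm38.p6, chr2:137116521-137116770, minus strand: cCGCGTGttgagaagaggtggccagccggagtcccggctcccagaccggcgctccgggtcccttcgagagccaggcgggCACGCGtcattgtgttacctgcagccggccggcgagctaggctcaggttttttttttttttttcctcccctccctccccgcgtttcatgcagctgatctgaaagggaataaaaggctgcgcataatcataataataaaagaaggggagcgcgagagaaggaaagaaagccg
Hey2 held TTCCCAC, the longer form read on the other strand, from 207 to 201 bases before the start, and 1 further match reached past the start. The longer form was in 5.42% of all 32851 promoters of the table and the core in 21.6%. The core was in the promoters of 2 of the 7 genes, Hey2 and Rbpj. CACGNG was in those of 3 of the 7 (Jag1 with 2 matches, Notch2 and Notch3) and in 23.5% of all promoters. A match is a description of the letters in these windows.

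All 10 genes of the melanocyte list, which includes Dct, Tyr, Mitf and Sox10, read above the array's median on all 8 arrays, so the labelled cell type had its markers. Keratinocyte genes (8 of 8 measured) and Schwann cell genes (6 of 6) did so too. Of 8 fibroblast genes, 6 or 7 read above the median on each array. P4_WT replicate 2 stood apart in endothelial genes (mean log2 value 5.28 against 3.19 to 3.48 on the other arrays) and in immune genes (5.27 against 3.05 to 3.48). On the second principal component P21_KO replicate 4 scored 48.4, against -22.5 to 10.2 for the rest. Within groups, arrays correlated across genes at 0.954 to 0.974. Between groups, P21_KO with P21_WT arrays correlated at 0.950 to 0.977, as high as within groups, and P21_WT with P4_WT arrays at 0.942 to 0.946. Braf, a target of the knockout, read 6.57, 6.49, 6.30 and 5.66 in P21_KO, against 5.99 and 7.20 in P21_WT, and P4_WT read 5.80 and 6.00. These ranges overlap, and since it is unknown here whether the probes fall in the deleted exons, Braf does not check the genotype labels. The gene of C-raf was not analysed here.

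**Figure D1:**
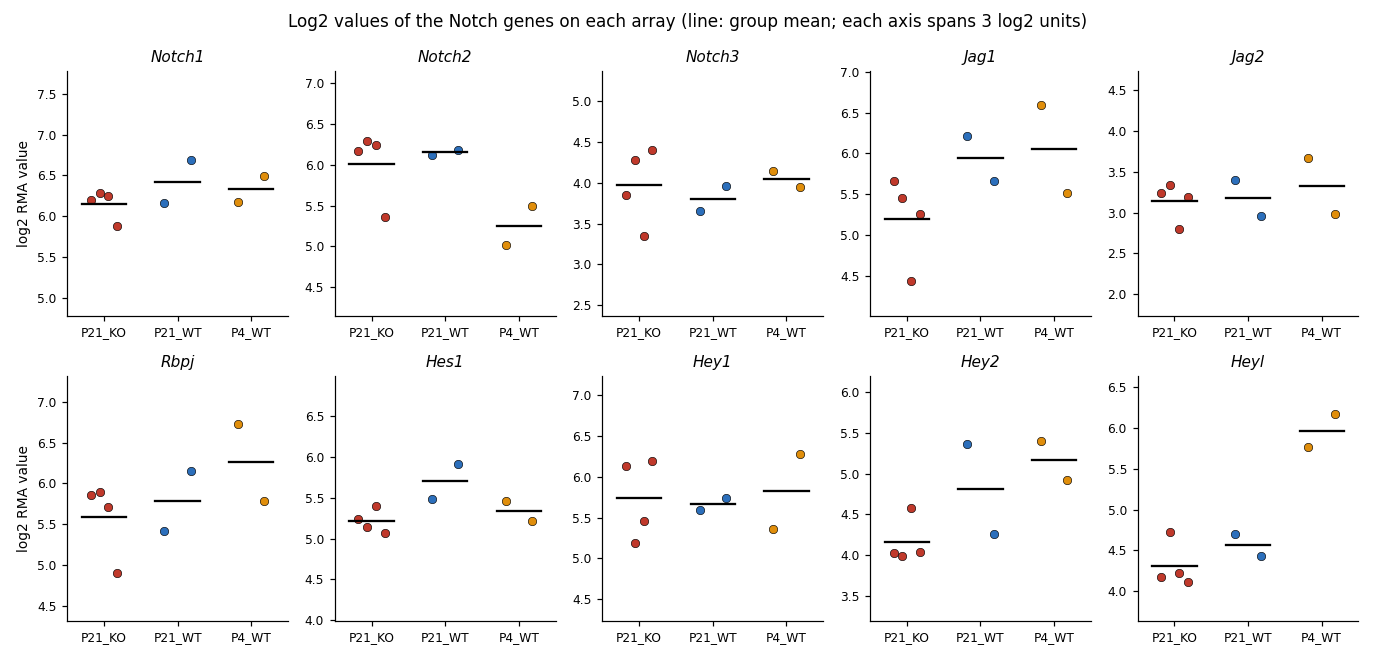
Log2 RMA value (vertical axis, 3 log2 units in every panel) of each of the 10 Notch genes on each array of P21_KO (n = 4), P21_WT (n = 2) and P4_WT (n = 2), in order of replicate from left to right. Points are arrays and lines are group means. Heyl is the panel in which both P4_WT arrays (5.77 and 6.17) lie above all 6 P21 arrays (4.11 to 4.73).

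The first comparison sets melanocyte stem cells at 21 days against melanoblasts at 4 days. Age and cell stage change together here and cannot be told apart, so the word age names this comparison only. Heyl, the gene of a HEY family repressor, fell, and none of the other 9 Notch genes passed the test. With limma, 1 of the 10 genes was called at an adjusted p under 0.05, against 1.61% of all 22180 genes, or 0.852% counting only falls. The median log2 difference of the 10 genes was -0.15, against 0.00 for all genes, and 7 of the 10 were below 0. Before adjustment, p was under 0.05 for 2 of the 10, Heyl and Notch2, and for 12.6% of all genes. The groups did not overlap for 3 of the 10 (Heyl, Notch2 and Hes1), against 43.5% of all genes, so this count is not a result about the Notch genes.

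Heyl read 4.70 and 4.43 in P21_WT, against 5.77 and 6.17 in P4_WT. The 4 P21_KO arrays read 4.18, 4.73, 4.22 and 4.11, also below both P4_WT arrays. The group means were 4.57 ± 0.19 in P21_WT and 5.97 ± 0.28 in P4_WT (SD, n = 2 each), a log2 difference of -1.40 ± 0.25 (SE) or 2.64-fold (limma adjusted p = 0.0371). The call was close to the threshold. It was lost in 6 of the 8 fits that left out 1 array, those without P21_WT replicate 1 or 2 (adjusted p = 0.123 and 0.171), P4_WT replicate 1 or 2 (0.0586 and 0.145) or P21_KO replicate 1 or 3 (0.0616 and 0.0718), while the difference stayed between -1.60 and -1.20. With the wild-type arrays alone the limma adjusted p was 0.11.

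HEYL is also known from pericytes and vascular smooth muscle, and HEY genes from endothelium, so the marker lists of other skin cells were set beside it. Genes of the hair shaft and inner root sheath (10 of 10 measured) had log2 differences below 0 in 10 of 10 cases, with 3 called, and summed to 28.3 to 28.6 log2 units in P21_WT, against 42.8 to 60.9 in P4_WT. Mural genes (8 of 8 measured) summed to 35.6 to 36.4 in P21_WT, against 33.8 to 41.4 in P4_WT. Their log2 differences were above 0 in 6 of 8 cases, from 0.0018 (Abcc9) to 0.49 (Pdgfrb), with 0 called. Those below 0 were Rgs5 (-1.97) and Acta2 (-0.61). Rgs5 read 4.72 and 5.21 in P21_WT, against 8.10 and 5.76 in P4_WT (limma adjusted p = 0.251). The higher P4_WT array for the mural list was replicate 1 (mean log2 value 5.17, against 4.23 in replicate 2). Without P4_WT replicate 1, the Heyl difference was -1.60. Endothelial genes (10 of 10 measured) summed to 33.8 to 34.8 in P21_WT, against 34.3 to 52.8 in P4_WT. In P4_WT replicate 1, 3 of the 10 endothelial genes read above the array's median, and in P4_WT replicate 2 all 10 did. Without P4_WT replicate 2, the array with the high endothelial and immune values, the Heyl difference was -1.20 and was not called (limma adjusted p = 0.145). The part of hair, mural, endothelial and immune cells in the Heyl difference was not tested, and in bulk samples fewer cells of a type cannot be told apart from less RNA per cell.

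**Figure D2:**
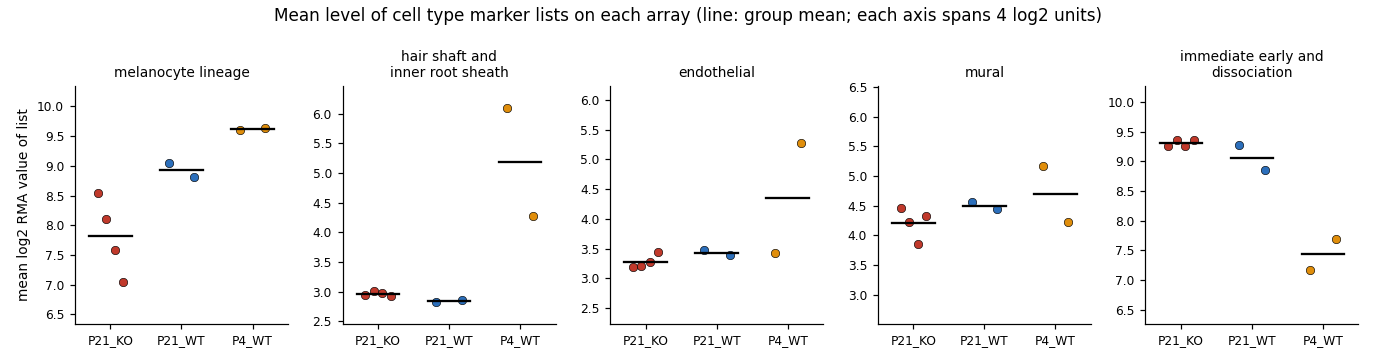
Mean log2 RMA value (vertical axis, 4 log2 units in every panel) of 5 marker lists on each array of P21_KO, P21_WT and P4_WT, with lines for group means. Hair genes are high on both P4_WT arrays (6.09 and 4.28, against 2.83 to 3.00 on the P21 arrays), endothelial genes on P4_WT replicate 2 alone, and immediate early genes on all P21 arrays.

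The genes whose pattern over the 8 arrays was most like that of Heyl, among 17814 named genes searched, were Ccna2, the cyclin A2 gene (Pearson r = 0.987), Pgm2l1 (r = 0.981) and Bcl11a, a zinc finger repressor gene (r = 0.981). Ccna2 read 4.73 and 4.71 in P21_WT, against 6.75 and 7.24 in P4_WT. These 3 were picked as the most alike of many genes, so the correlations are a description. Among the 10 Notch genes themselves, the 45 pairwise correlations over the 8 arrays had a median of 0.01 and ran from -0.59 (Notch2 with Heyl) to 0.83 (Jag1 with Jag2), with 24 of the 45 above 0. Heyl correlated with Hey2 at 0.65, with Hey1 at 0.01 and with Hes1 at -0.03.

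None of the other targets passed the test for age. Hes1, the gene of a HES repressor expressed in many stem and progenitor cells, read 5.48 and 5.91 in P21_WT, against 5.46 and 5.22 in P4_WT, a log2 difference of 0.36 ± 0.21 (SE; limma adjusted p = 0.553) that was 0.14 without P21_WT replicate 2 and 0.57 without P21_WT replicate 1. The groups did not overlap, but the nearest arrays of the 2 ages lay side by side. Hey1, which encodes a HEY repressor, read 5.59 and 5.74 in P21_WT, inside the range of 5.36 and 6.28 in P4_WT. Hey2, also a HEY repressor gene, read 5.36 and 4.27 in P21_WT, against 5.40 and 4.92 in P4_WT, so the spread within P21_WT exceeded the difference of -0.35 ± 0.37 (SE; limma adjusted p = 0.807).

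Of the receptors, Notch2 had the largest difference. It read 6.12 and 6.19 in P21_WT, against 5.01 and 5.49 in P4_WT. The log2 difference of 0.90 ± 0.32 (SE), or 1.87-fold, had a 95% interval of 0.16 to 1.65 and did not pass (limma adjusted p = 0.278). Among the P21_KO arrays 3 read 6.17, 6.29 and 6.25, near P21_WT, and replicate 4 read 5.36, between the P4_WT values. Without that array the limma adjusted p for age was 0.0835, the lowest of the alternatives tried. The list of immediate early genes, which cell dissociation can switch on, had differences above 0 in 11 of 11 cases, 8 of them called (summed level 97.4 to 101.9 in P21_WT, against 78.8 to 84.7 in P4_WT), and Schwann cell genes did so in 6 of 6 cases, 4 of them called (51.7 to 51.9 in P21_WT, against 44.5 to 44.7 in P4_WT). Keratinocyte genes were above 0 in 8 of 8 cases, 1 called (66.6 to 66.9 in P21_WT, against 53.0 to 59.9 in P4_WT), and melanocyte genes below 0 in 8 of 10, none called (88.2 to 90.4 in P21_WT, against 96.0 to 96.4 in P4_WT). The part of these lists in the age differences of the Notch genes was not tested.

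Notch1, the receptor best known from T cells and epidermis, read 6.16 and 6.69 in P21_WT, against 6.17 and 6.49 in P4_WT. Its 95% interval of -0.45 to 0.64 leaves room for a modest difference in either direction. Notch3, the receptor of mural cells, read 3.65 and 3.96 in P21_WT, against 4.15 and 3.95 in P4_WT, with overlapping groups and no call (limma adjusted p = 0.87). For both, the ranges of the 2 ages overlapped.

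Both Jagged genes were as variable within ages as between them. Jag1, a ligand used in hair follicles and blood vessels, read 6.22 and 5.66 in P21_WT, against 6.59 and 5.51 in P4_WT (log2 difference -0.11 ± 0.46 SE). Jag2 read 3.40 and 2.96 in P21_WT, against 3.67 and 2.99 in P4_WT (-0.15 ± 0.28 SE). Jag2 was above the array's median on only 2 of the 8 arrays, near the floor where RMA compresses differences, whereas the other 9 genes were above it on all 8. For both ligands, replicate 2 was the lower array at each age.

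Rbpj, which encodes the factor that all 4 receptors of the mouse act through, was listed on 2 rows. The row with the higher mean read 5.42 and 6.16 in P21_WT, against 6.73 and 5.79 in P4_WT (log2 difference -0.47 ± 0.43 SE, limma adjusted p = 0.763). That difference was -0.0015 without P4_WT replicate 1 and -0.94 without P4_WT replicate 2. The other row read 2.93 and 2.99 in P21_WT, against 3.13 and 2.75 in P4_WT, with a difference of 0.02 ± 0.21 (SE). The rows did not move together over the 8 arrays (r = -0.06). Rbpj lies on chromosome 5, and by row number the higher row has 37 of 37 mapped neighbours on chromosome 6 and lies between Nobox and Ezh2, as the pseudogene Rbpj-ps3 does. All 39 mapped neighbours of the lower row are on chromosome 5. Which share of the higher row's signal comes from Rbpj and which from that copy cannot be told apart here, so the Rbpj level is uncertain.

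**Figure D3:**
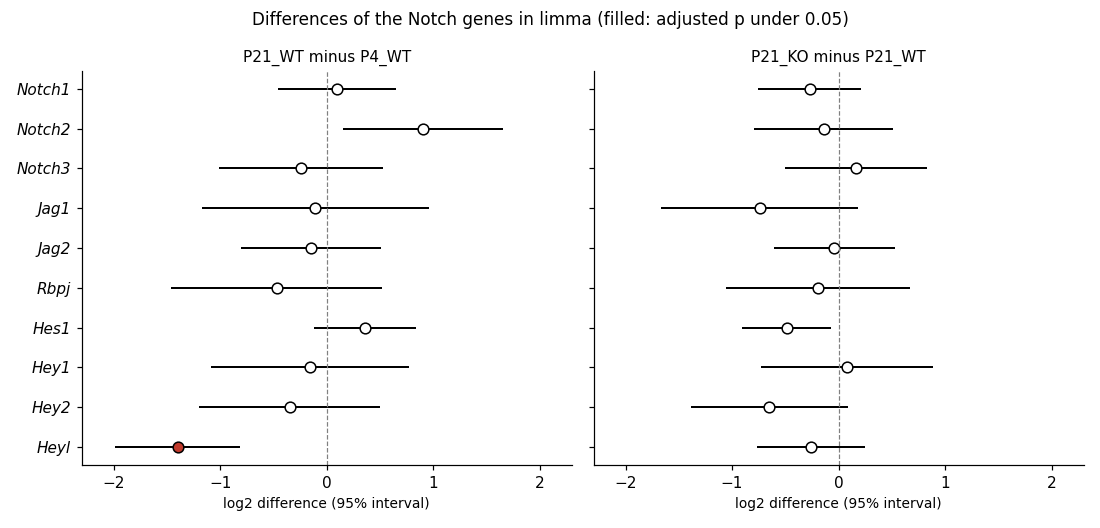
Log2 difference (horizontal axis) with its 95% interval for each Notch gene, for P21_WT minus P4_WT on the left and P21_KO minus P21_WT on the right, from the limma fit to all 8 arrays. A filled point marks an adjusted p under 0.05, which Heyl alone reached, for age (-1.40).

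The second comparison sets melanocyte stem cells with the floxed Raf alleles against wild-type ones at 21 days. None of the 10 Notch genes passed the test, and limma called 0 of 22180 genes (0%). Without adjustment, 1447 genes (6.52%) had a p under 0.05, with Hes1 the 1 Notch gene among them. The median log2 difference of the 10 was -0.23, against 0.01 for all genes, with 8 of the 10 below 0. The groups did not overlap for 2 of the 10 (Hes1 and Jag1), against 15.4% of all genes. Both comparisons use the P21_WT arrays, with opposite sign, so their values are not independent. Melanocyte lineage genes had differences below 0 in 9 of 10 cases, none called, and summed to 70.5 to 85.5 in P21_KO, against 88.2 to 90.4 in P21_WT. Their part in the values below was not tested.

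Hes1 read 5.24, 5.15, 5.40 and 5.07 in P21_KO, against 5.48 and 5.91 in P21_WT. All P21_KO arrays were below both P21_WT arrays, by a small margin for the nearest pair, and the P4_WT arrays, at 5.46 and 5.22, were also below both P21_WT arrays. The means were 5.21 ± 0.14 in P21_KO (SD, n = 4) and 5.70 ± 0.30 in P21_WT (SD, n = 2). The log2 difference was -0.49 ± 0.18 (SE), or 1.40-fold lower in P21_KO, with a 95% interval of -0.89 to -0.08, and limma's adjusted p was 0.708. It was -0.27 without P21_WT replicate 2 and -0.70 without P21_WT replicate 1.

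Jag1 read 5.66, 5.45, 4.44 and 5.26 in P21_KO, against 6.22 and 5.66 in P21_WT. The highest P21_KO value equalled the lower P21_WT value to 2 decimals, and P21_KO replicate 3 was the lowest of all arrays. The log2 difference of -0.74 ± 0.40 (SE) did not pass (limma adjusted p = 0.846), and it was -0.48 without P21_KO replicate 3 and -0.46 without P21_WT replicate 1. Jag2 differed by -0.04 ± 0.25 (SE), with P21_KO values of 2.80 to 3.34, against 3.40 and 2.96 in P21_WT, and the groups overlapped.

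Hey2 read 4.03, 3.99, 4.58 and 4.04 in P21_KO, against 5.36 and 4.27 in P21_WT. The groups overlapped through P21_KO replicate 3. The difference of -0.65 ± 0.32 (SE; limma adjusted p = 0.81) rested on P21_WT replicate 1, since it was -0.10 without that array and -1.20 without P21_WT replicate 2. Heyl, the gene called lower in P21_WT than in P4_WT, read 4.11 to 4.73 in P21_KO, across the 4.43 and 4.70 of P21_WT (-0.26 ± 0.22 SE). Hey1 read 6.13, 5.19, 5.46 and 6.19 in P21_KO, on either side of the 5.59 and 5.74 of P21_WT, and differed by 0.08 ± 0.35 (SE).

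Neither the receptors nor Rbpj passed the test for genotype. Notch1 read 5.87 to 6.29 in P21_KO, against 6.16 and 6.69 in P21_WT (-0.27 ± 0.21 SE), Notch2 differed by -0.14 ± 0.28 (SE) and Notch3 by 0.16 ± 0.29 (SE), with limma adjusted p of 0.896, 0.975 and 0.971. The Notch1 difference was -0.0037 without P21_WT replicate 2 and -0.54 without P21_WT replicate 1. The 95% interval for Notch2 ran from -0.78 to 0.51. Rbpj read 5.86, 5.89, 5.71 and 4.90 in P21_KO on its higher row, against 5.42 and 6.16 in P21_WT (-0.20 ± 0.37 SE). P21_KO replicate 4 was the lowest P21_KO array for Notch1, Notch2, Rbpj, Hes1 and Heyl, and the highest for Notch3 and Hey1.

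**Figure D4:**
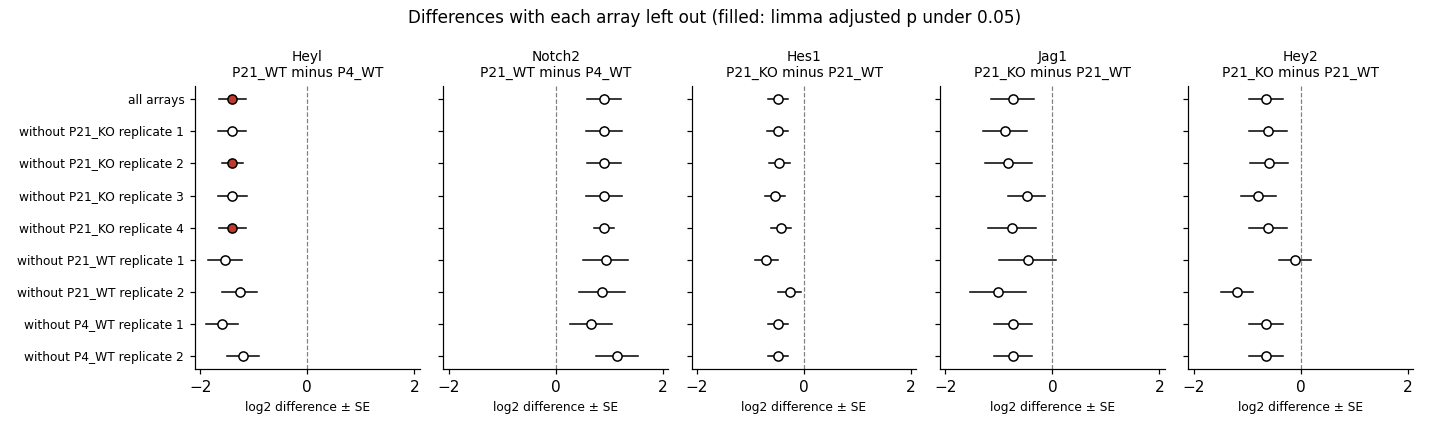
Log2 difference ± SE (horizontal axis) of Heyl and Notch2 for P21_WT minus P4_WT, and of Hes1, Jag1 and Hey2 for P21_KO minus P21_WT, with all arrays (top) and with each array left out. A filled point marks a limma adjusted p under 0.05, reached for Heyl with all arrays and in 2 of the 8 fits without 1 array. No point crosses 0, and Hey2 is nearest to it without P21_WT replicate 1 (-0.10).

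Of 51 further Notch pathway genes listed, 48 were measured, and 0 were called by limma for age and 0 for genotype. With an unadjusted limma p below 0.05, 3 were higher and 0 lower in P21_WT than in P4_WT, and 2 were higher and 1 lower in P21_KO than in P21_WT. Of all genes, 12.6% had such a p for age and 6.52% for genotype, so these counts are not a result about the pathway. The median log2 difference of the list was 0.02 for age and -0.03 for genotype. Tle2, which encodes a Groucho family co-repressor that HES proteins recruit, read 4.59 and 4.83 in P21_WT, against 4.05 and 3.84 in P4_WT. Its difference of 0.76 was the only one of the list under an adjusted p of 0.10 (limma adjusted p = 0.0857), a threshold that 3.04% of all genes passed for age. Of 8 co-repressor genes 6 were above 0 for age. Tle4, also of the Groucho family, read 5.23, 4.82, 5.52 and 4.33 in P21_KO, against 6.36 and 5.68 in P21_WT, a log2 difference of -1.05 with no call (limma adjusted p = 0.652).

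The proteases that cut Notch receptors were below 0 for age in 7 of 7 cases, with a median of -0.17, and none was called. Aph1a, a subunit gene of gamma-secretase, read 5.36 and 6.71 in P21_WT, against 6.87 and 7.39 in P4_WT, the largest difference of the 7 (-1.10). Psen2, the gene of a catalytic subunit of gamma-secretase, had the smallest p of the 7 by genotype, and read 5.06, 4.55, 4.07 and 4.28 in P21_KO, against 4.99 and 5.26 in P21_WT (-0.63). For Aph1a the arrays of P21_WT stood further apart than the group means did from each other. By row number, the Aph1a row lies among rows of chromosome 1 (39 of 39 mapped neighbours) while the gene is on chromosome 3, and that of Psenen, a further gamma-secretase subunit gene, among rows of chromosome 4 (37 of 37) while the gene is on chromosome 7. As for Rbpj, what these 2 rows read is uncertain, and they were the only such rows among the 48. The differences of the other 5 protease genes do not rest on them.

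Among co-activators, 5 of 7 were above 0 for age, the largest being Maml3 (0.84), and none was called. Snw1, which encodes a protein of the RBPJ complex, had the smallest p of the 7 for age and differed by -0.60. Kat2b, a histone acetyltransferase gene, read 6.13, 6.56, 6.51 and 5.88 in P21_KO, against 5.14 and 5.73 in P21_WT. Its difference of 0.83 had the smallest p of the 48 by genotype and groups that did not overlap, and did not pass (limma adjusted p = 0.609). Dtx2, which encodes a Deltex ubiquitin ligase, had the smallest p of its role in both comparisons, with differences of 0.59 for age and 0.56 for genotype.

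Other ligand genes were dim. Dll1, Dll3 and Dll4, of the Delta-like family, read below the array's median on all 8 arrays, and Dlk1, a related gene without the usual receptor-binding domain, differed by -0.56 for age, while Dll3 differed by -0.17 for genotype. Notch4, the receptor of endothelium, differed by 0.14 for age and -0.15 for genotype. Among glycosyltransferases, which add sugars to Notch, Rfng, a Fringe gene, differed by -0.44 for age and Pofut1, which adds fucose, by -0.17 for genotype. Of the other target genes, Nrarp, a feedback inhibitor, differed by -0.08 for age and Hes7 by 0.19 for genotype. None of these genes passed limma's test.

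**Figure D5:**
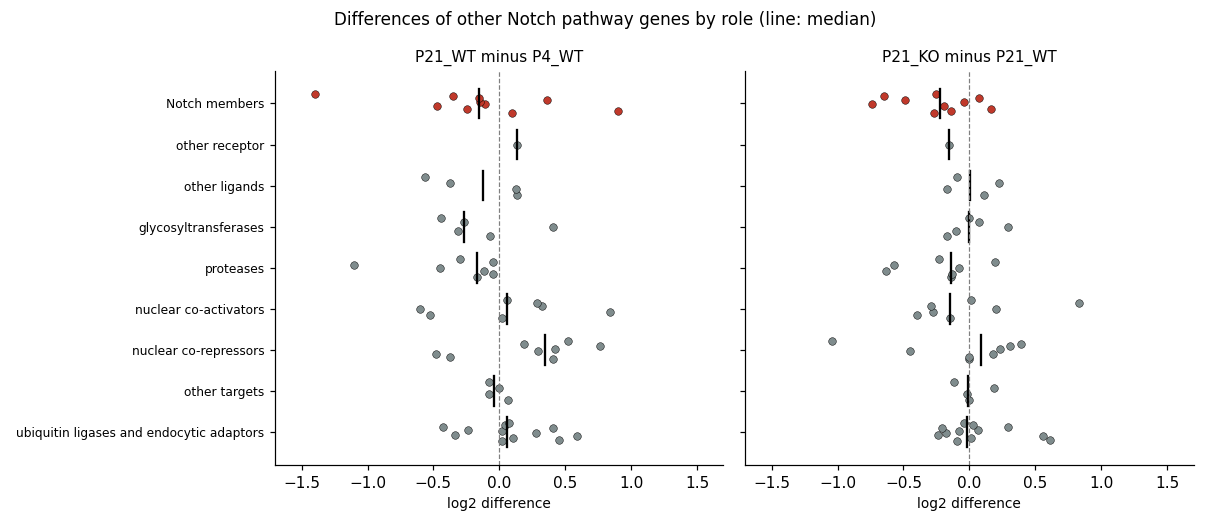
Log2 difference (horizontal axis) of the 10 Notch genes and of the other 48 pathway genes by role, for P21_WT minus P4_WT on the left and P21_KO minus P21_WT on the right. Points are genes and lines are medians. Proteases lie below 0 for age in 7 of 7 cases, and Heyl (-1.40) is the lowest point among the Notch genes.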

How the data were processed

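Cells sorted from mouse skin were measured on 8 arrays in 3 groups. The authors deposited log2 values for each row of the array. RMA and Affymetrix Expression Console are the tools named, per the submitters' processing notes, without versions. RMA compresses differences near the floor, so differences of dim genes can be understated, and the number of arrays limits the precision.

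Of 41345 rows, 23521 had 1 gene symbol, 1814 had several and 16010 were unnamed here. Keeping the row with the highest mean left 22180 genes. A linear model with 3 groups was fitted to all arrays in limma 3.58.1 (R 4.3.3; lmFit, eBayes, 5 residual degrees of freedom), and two-sided p-values were adjusted by Benjamini-Hochberg over all genes and called under 0.05. The fit was tested on simulated data. The 10 genes, the pathway and marker lists and the tests were chosen with earlier results of these data known. All 10 are named, with the pathway genes of smallest p per role and comparison, and the 3 genes most correlated with a called gene. Promoters are from RefSeq (GRCm38.p6). Array medians are over the 22180 genes. Alternatives covered the arrays in the fit, prior, weights, normalization, dim genes, rows per gene, blocks, threshold and leaving out each array. Replicate numbers are those of the labels, which do not say that they pair animals.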

Additional observations from a re-analysis of the deposited data

Results flagged for a closer look

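A gap beyond Dixon's 95% critical value for a group of 4 also arises by chance in some groups. Among the 4 P21_KO arrays, Notch2 in replicate 4 stood apart at a log2 value of 5.36, against 6.17 to 6.29 on the other 3. Hey2 in P21_KO replicate 3 stood apart at 4.58, against 3.99 to 4.04 on the other 3.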

How the results depend on the processing

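Heyl was lower in P21_WT than in P4_WT under all 18 alternatives, with differences of -1.60 to -1.20 on the log2 scale, with limma adjusted p from 0.0266 to 0.171, and 9 of the 18 kept the call. The number of Notch genes called by age was 0 with only the groups compared, with a trend and robust prior (adjusted p of Heyl 0.0567) and with a replicate block (0.125), and 0 to 1 with each array left out. The number of all genes called by age was 49 with only the groups compared, 45 with the replicate block and 674 at an adjusted p under 0.10, and 119 to 338 with each array left out (121 without P21_WT replicate 1, 119 without P21_WT replicate 2 and 233 without P21_KO replicate 3). At that threshold 1 of the 48 pathway genes was called. By genotype, 0 to 15 genes were called with each array left out, none of them a Notch gene (2 without P21_WT replicate 1, 15 without P21_WT replicate 2, 1 without P21_KO replicate 1 and 0 otherwise). Deviations of arrays with the same replicate number from their group means correlated at -0.01 for age and at -0.04 and -0.01 for genotype. The arrays set side by side differ in age or genotype, so they come from different animals. With 2 arrays in a wild-type group, the deviations mirror each other, so these values cannot decide whether arrays share a litter or day. They concern replicate numbers, not the common number that P21_KO arrays carry, whose meaning was not tested. For genes not called, signs turned under some settings. With the replicate block the genotype difference was 0.0759 for Notch2, 0.0863 for Rbpj, 0.11 for Jag2 and -0.0047 for Hey1, and with the lower Rbpj row, an alternative chosen after seeing the data, the age difference of Rbpj was 0.0187. With each array left out, the age difference ran from -0.17 to 0.36 for Notch1, -0.65 to 0.43 for Jag1, -0.49 to 0.19 for Jag2, -0.62 to 0.31 for Hey1 and -0.90 to 0.20 for Hey2. The genotype difference ran from -0.23 to 0.0817 for Notch2, -0.57 to 0.17 for Rbpj, -0.26 to 0.18 for Jag2 and -0.0723 to 0.26 for Hey1. The causes were not tested. With 2 wild-type arrays per age, the 95% intervals limit which differences could be seen.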
